A study of Rattus norvegicus with 6 samples.

Results

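Transcripts of heterotrimeric G proteins and of regulators of G protein signalling (RGS) were read in the hippocampus of SHA (Syracuse High Avoidance) and SLA (Syracuse Low Avoidance) rats. The genes considered were Gnao1, Gnai1, Gnai2, Gnai3, Gnaq, Gnb1, Rgs2 and Rgs4, and every probe set whose platform annotation names exactly 1 gene among these 8 was taken. This gave 10 probe sets of 5 genes, among 8740 probe sets other than array controls and 4736 named genes. Gnao1 has 2, Gnai1 has 1, Gnai2 has 3, Gnb1 has 3 and Rgs4 has 1. Gnai3, Gnaq and Rgs2 have no such probe set, and 1 further probe set that lists several genes was not used. SHA rats come from a line that performs well in active avoidance learning, in which a rat crosses a box to avoid a signalled shock, and SLA rats from a line that performs poorly. Each line was represented by 3 pools of whole hippocampus, each pool made from 3 rats killed 2 weeks after avoidance testing, and each pool was read on its own array. Every animal had been tested, so line differences that preceded testing and responses to testing cannot be told apart. The labels give no age, sex or other treatment. The pool was taken as the replicate, with n = 3 per line throughout. The labels do not say outright that the pools of a line hold different rats, so p-values measure only the spread between these pools, which may be partly technical.

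A heterotrimeric G protein carries a signal from a membrane receptor into the cell. An alpha subunit binds GTP and separates from a beta-gamma pair, and both parts act on enzymes and ion channels. Alpha subunits of the Gi and Go class, encoded by Gnai1, Gnai2, Gnai3 and Gnao1, lower adenylyl cyclase activity or act through their beta-gamma partner on potassium and calcium channels, and Go is abundant in neurons. Gnaq encodes the alpha subunit that activates phospholipase C-beta, and Gnb1 a widely used beta subunit. RGS proteins speed up GTP hydrolysis by alpha subunits and so shorten the signal. Rgs4 acts on Gi, Go and Gq subunits and is enriched in neurons, while Rgs2 acts mainly on Gq.

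No probe set of these genes separated the lines. The largest difference was that of Rgs4, at 0.62 ± 0.69 (log2 SHA minus SLA ± standard error), followed by Gnai1 at 0.34 ± 0.42. The remaining 8 probe sets, all of Gnao1, Gnai2 and Gnb1, differed by -0.17 to 0.03. Larger differences lay between pools of different number within a line. Gnao1 M17526_at, Gnai1, Gnb1 U88324_at and Rgs4 were lowest in the pool numbered 1 of each line, and the brightest Gnb1 probe set was highest there. The brighter Gnao1 probe set, M17526_g_at, was lowest in the pool numbered 1 in SHA only.

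For Gnao1, Gnai1 and Rgs4, the 250 bases before the annotated start are shown here, from RefSeq (GRCr8), with motif matches in capitals. Each motif was searched on both strands of 33469 promoter windows of this length. The TATA box was searched as TATAAA, which 12.9% of the windows hold. The CCAAT box was searched by its own letters, CCAAT, held by 34.0%. The GC box was searched as GGGCGG, held by 30.5%. The cAMP response element was searched as TGACGTCA, held by 1.59%. Overlapping matches run together.
Gnao1 (chr19:11198438-11198687, minus strand): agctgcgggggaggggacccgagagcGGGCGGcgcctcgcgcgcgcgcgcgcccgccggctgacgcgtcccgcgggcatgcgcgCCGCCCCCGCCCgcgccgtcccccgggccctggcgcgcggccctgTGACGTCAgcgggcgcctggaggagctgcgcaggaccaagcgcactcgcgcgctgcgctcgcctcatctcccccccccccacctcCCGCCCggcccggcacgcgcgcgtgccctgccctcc
Gnai1 (chr4:17705811-17706060, plus strand): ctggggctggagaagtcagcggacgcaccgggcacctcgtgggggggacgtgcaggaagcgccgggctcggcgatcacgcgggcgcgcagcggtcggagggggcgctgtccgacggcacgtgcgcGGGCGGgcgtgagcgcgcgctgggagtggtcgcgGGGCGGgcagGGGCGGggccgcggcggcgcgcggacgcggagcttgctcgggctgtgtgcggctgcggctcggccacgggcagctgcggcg
Rgs4 (chr13:84475885-84476134, minus strand): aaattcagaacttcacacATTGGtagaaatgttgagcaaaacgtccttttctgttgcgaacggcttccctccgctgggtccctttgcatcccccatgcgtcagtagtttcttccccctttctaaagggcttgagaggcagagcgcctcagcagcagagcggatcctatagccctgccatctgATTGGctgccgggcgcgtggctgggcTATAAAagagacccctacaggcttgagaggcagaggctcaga
The Gnao1 window holds 4 GC box matches and 1 match to the cAMP response element, and 83.6% of its bases are G or C. The Gnai1 window holds 3 GC box matches, with 80.4% G or C. The Rgs4 window holds 1 TATA box and 2 CCAAT box matches and no GC box, with 54.4% G or C, against a median of 51.2% over all windows. These matches are letters in a window and were not measured as binding sites.

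Of the 10 probe sets, all passed the filter on dim signal and none had a pool at the floor of 8.9. By limma, 0 of the 10 passed an adjusted p under 0.05, as did 0% of the 6555 probe sets tested. At an unadjusted p under 0.05 there were also 0 of 10, against 1.5% of all tested. The SHA pools lay wholly above or below the SLA pools for 0 of 10, against 5.66% of all tested. Differences were below 0 for 6 and above 0 for 4, with a median of -0.05, beside a median of -0.01 and 51.9% below 0 over all probe sets. Each of the 10 had an adjusted p of 1.00. The whole tissue was extracted, so fewer cells of a type and less RNA per cell cannot be told apart in any of these values.

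**Figure D1:**
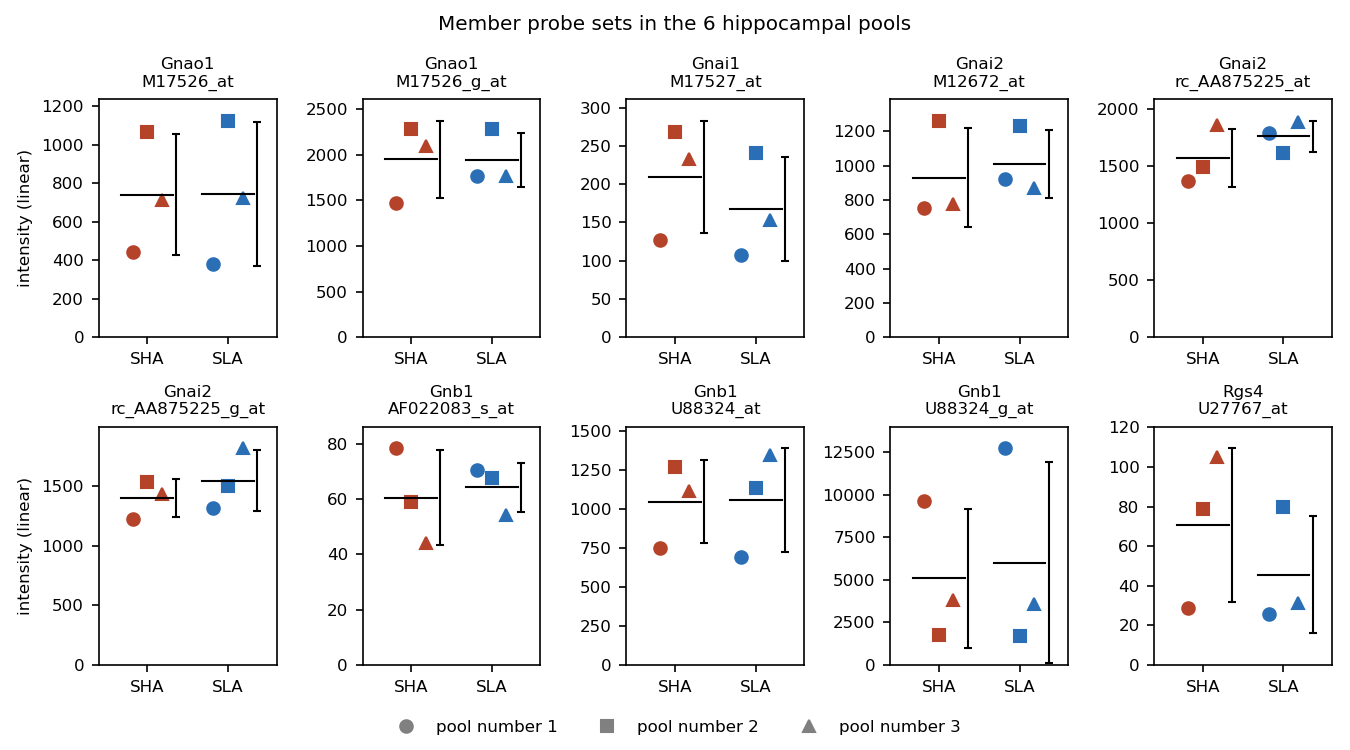
Linear intensity of the 10 probe sets in the 3 SHA pools (red) and the 3 SLA pools (blue), with the marker shape giving the pool number, the bar the mean and the error bar the SD (n = 3). The lines overlap in every panel, and same-numbered pools lie at similar heights for Gnao1 M17526_at and Gnb1 U88324_g_at.

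Gnao1 encodes the alpha subunit of Go. Its brighter probe set, M17526_g_at, read 1467, 2281 and 2097 in SHA pools 1, 2 and 3, against 1772, 2282 and 1764 in SLA pools 1, 2 and 3. The means were 1948 ± 427 in SHA and 1940 ± 296 in SLA (SD, n = 3), and the difference was -0.01 ± 0.25. The highest pool of each line was the one numbered 2, and the lines overlapped. The other probe set, M17526_at, whose pool values were added after they were seen, read 440.6, 1068 and 711.7 in SHA and 381.4, 1127 and 725.6 in SLA, a difference of 0.03 ± 0.43. Here both lines had the same order of pools, with number 1 lowest and number 2 highest.

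Gnai1 encodes an inhibitory alpha subunit. Its only probe set, M17527_at, read 126.9, 268.4 and 233.4 in SHA pools 1, 2 and 3, against 107, 240.7 and 153.7 in SLA pools 1, 2 and 3. The SHA pool was the higher one within each number, by 0.25, 0.16 and 0.60 on the log2 scale for numbers 1, 2 and 3. Leaving out 1 pool moved the Gnai1 difference to between 0.053 (without SLA pool 1) and 0.66 (without SHA pool 1). The lines overlapped, since the lowest SHA pool lay below the SLA pools numbered 2 and 3.

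Gnai2 encodes another inhibitory alpha subunit, found in most cell types. Its brightest probe set, rc_AA875225_at, read 1372, 1488 and 1861 in SHA and 1787, 1615 and 1885 in SLA, a difference of -0.17 ± 0.23. The SHA pool was the lower one within each number, by between 0.02 and 0.38 in log2 size, and the lines overlapped. The probe set rc_AA875225_g_at, from the same sequence and so not an independent reading, ranged from 1222 to 1537 in SHA and from 1313 to 1816 in SLA (-0.14 ± 0.23). M12672_at ranged from 750.7 to 1262 in SHA and from 871.6 to 1233 in SLA (-0.14 ± 0.28). For the other two Gnai2 probe sets the SHA pool was the lower one within numbers 1 and 3 and slightly higher within number 2, by 0.03 for each. All 3 Gnai2 probe sets thus leaned the same way by less than the spread between pools.

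Gnb1 encodes a beta subunit shared by many receptor pathways. Its brightest probe set, U88324_g_at, read 9654, 1788 and 3818 in SHA pools 1, 2 and 3, against 12739, 1701 and 3609 in SLA pools 1, 2 and 3. Both lines had the highest value in the pool numbered 1 and the lowest in the pool numbered 2, and the line difference was -0.08 ± 0.75. The probe set U88324_at, from the same sequence, whose pool values were also added after they were seen, read 753.5, 1273 and 1115 in SHA and 691.7, 1135 and 1345 in SLA (0.01 ± 0.31). In it the pools numbered 1 were the lowest of each line. The third, AF022083_s_at, ranged from 44.1 to 78.4 in SHA and from 54.2 to 70.7 in SLA (-0.12 ± 0.48). The Gnb1 probe sets therefore did not follow one another over the pools.

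Rgs4 encodes a GTPase-activating protein of neurons. Its probe set U27767_at read 28.6, 78.6 and 104.9 in SHA pools 1, 2 and 3, against 25.7, 79.8 and 31.5 in SLA pools 1, 2 and 3. The means were 70.7 ± 38.8 in SHA and 45.7 ± 29.7 in SLA (SD, n = 3). The log2 differences within numbers 1, 2 and 3 were 0.15, -0.02 and 1.74, so the lines were close in all but the pools numbered 3. Leaving out 1 pool moved the difference to between 0.24 (without SHA pool 3) and 1.18 (without SHA pool 1).

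The labels number the pools of each line 1 to 3. Over all probe sets tested, same-numbered pools deviated together for numbers 1 and 2 (r = 0.44 and 0.68), but only weakly for number 3 (0.13). With the number as a block the differences stay as given while their errors shrink. The blocked standard error of Gnao1 M17526_at was 0.15, and the 95% interval of its difference was -0.31 to 0.38, or 0.807 to 1.30 times the SLA level. The interval was -0.35 to 0.33 for Gnao1 M17526_g_at, -0.34 to 0.35 for Gnb1 U88324_at and -0.42 to 0.26 for Gnb1 U88324_g_at. For Gnai2 the intervals ran from -0.49 to 0.14, from -0.46 to 0.18 and from -0.47 to 0.18 over rc_AA875225_at, rc_AA875225_g_at and M12672_at. They were wider for Gnai1, at -0.23 to 0.90, for Gnb1 AF022083_s_at, at -1.07 to 0.83, and for Rgs4, at -0.60 to 1.85. A difference of 3.60-fold for Rgs4 or 1.86-fold for Gnai1 thus lies at the edge of the blocked intervals. Without the block the intervals were wider, at -0.94 to 2.18 for Rgs4 and -0.61 to 1.28 for Gnai1 in log2. With the block 0 of 10 had an unadjusted p under 0.05, against 5.26% of all tested, and the blocked adjusted p lay between 0.84 and 1.00.

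**Figure D2:**
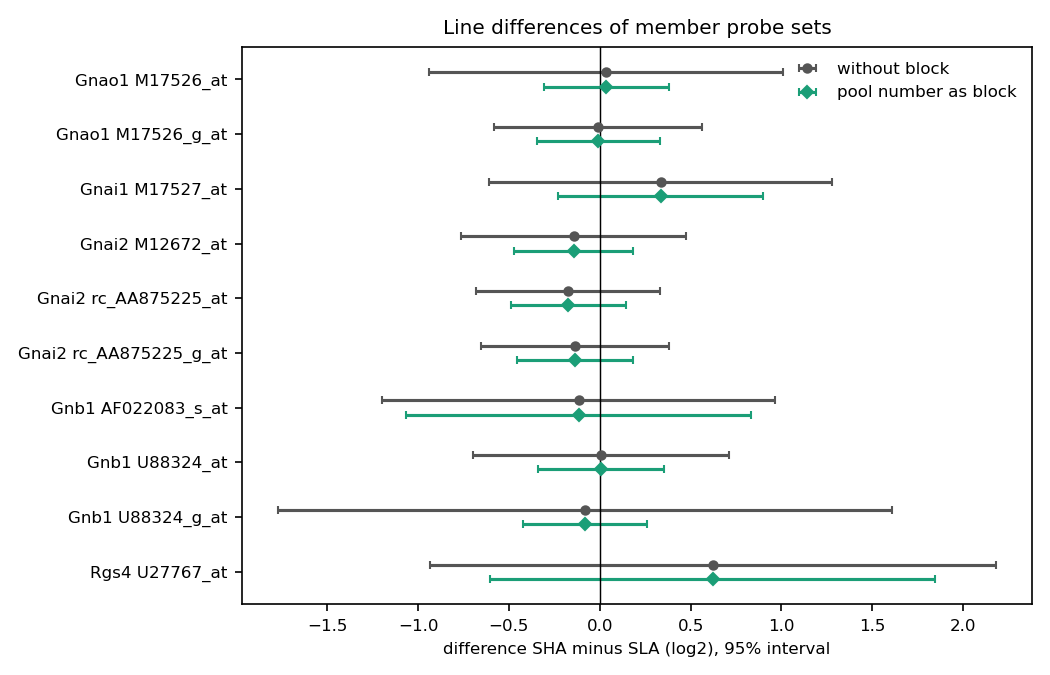
Difference SHA minus SLA in log2 for the 10 probe sets with 95% intervals from limma, without a block (grey circles) and with the pool number as a block (green diamonds), n = 3 pools per line. Every interval includes 0, and the blocked interval of Gnb1 U88324_g_at is -0.42 to 0.26.

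The spread between pool numbers was described without a test. The means of the 3 numbers spanned 2.67 log2 units for Gnb1 U88324_g_at, a range above that of 97.9% of the probe sets tested, and the pools numbered 1 averaged 6.36 times those numbered 2. The others lay lower in that distribution. The span was 1.55 for Rgs4 and 1.42 for Gnao1 M17526_at, above 85.0% and 81.5% of all tested. It was 1.13 for Gnai1 and 0.76 for Gnb1 U88324_at, above 70.2% and 47.6%, and 0.61 for Gnb1 AF022083_s_at, above 36.6%. Pools numbered 2 averaged 2.92 times those numbered 1 for Rgs4, 2.68 times for Gnao1 M17526_at and 2.18 times for Gnai1. The span was narrower for Gnai2, at 0.27 on rc_AA875225_at, 0.35 on rc_AA875225_g_at and 0.60 on M12672_at, and for Gnao1 M17526_g_at, at 0.50. Of the variation over the 6 pools, 98.8% lay between numbers for Gnao1 M17526_at and for Gnb1 U88324_g_at, against a median of 62.4% over all probe sets. The share between lines was 0.09% and 0.14% for these, against a median of 7.61%. It was highest for Gnai2 rc_AA875225_at, at 25.7%.

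Control probe sets moved with the same numbers. The antisense controls of Gapdh and beta-actin had geometric means of 1352, 30.1 and 365 in SHA pools 1, 2 and 3, against 1432, 21.3 and 219 in SLA pools 1, 2 and 3. For spiked-in controls of bacterial and phage origin these means were 5458, 1121 and 2279 in SHA, against 12282, 640 and 1564 in SLA. Gnb1 U88324_g_at had the order of these controls, with number 1 highest and number 2 lowest. Summed intensities of 6 neuronal marker genes were 6629, 10653 and 9772 in SHA pools 1, 2 and 3, against 6046, 9823 and 8474 in SLA pools 1, 2 and 3. These sums were lowest in the pools numbered 1, as were Gnao1 M17526_at, Gnai1, Gnb1 U88324_at and Rgs4. Among the marker genes summed, Syp ran otherwise in SLA, at 2160, 2195 and 1733 in SLA pools 1, 2 and 3. The others were lowest in the pool numbered 1 of each line. The other neuronal list, of 5 marker genes of hippocampal granule and pyramidal cells, ran otherwise, with sums of 9086, 6432 and 8403 in SHA pools 1, 2 and 3, against 8047, 5716 and 8030 in SLA pools 1, 2 and 3. Its sums were highest in the pools numbered 1 and lowest in those numbered 2. Most of each sum was Nrgn, at 7730, 4682 and 6967 in SHA pools 1, 2 and 3, and 7087.5, 4273 and 6828 in SLA. Calb1 and Neurod1 instead were lowest in the pool numbered 1 of each line. Camk2a was lowest in the pool numbered 3 of each line, and Neurod2 in SHA pool 1 and SLA pool 3. What a number shares is not stated in the labels, and the part of these controls and markers in the G protein values was not tested.

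**Figure D3:**
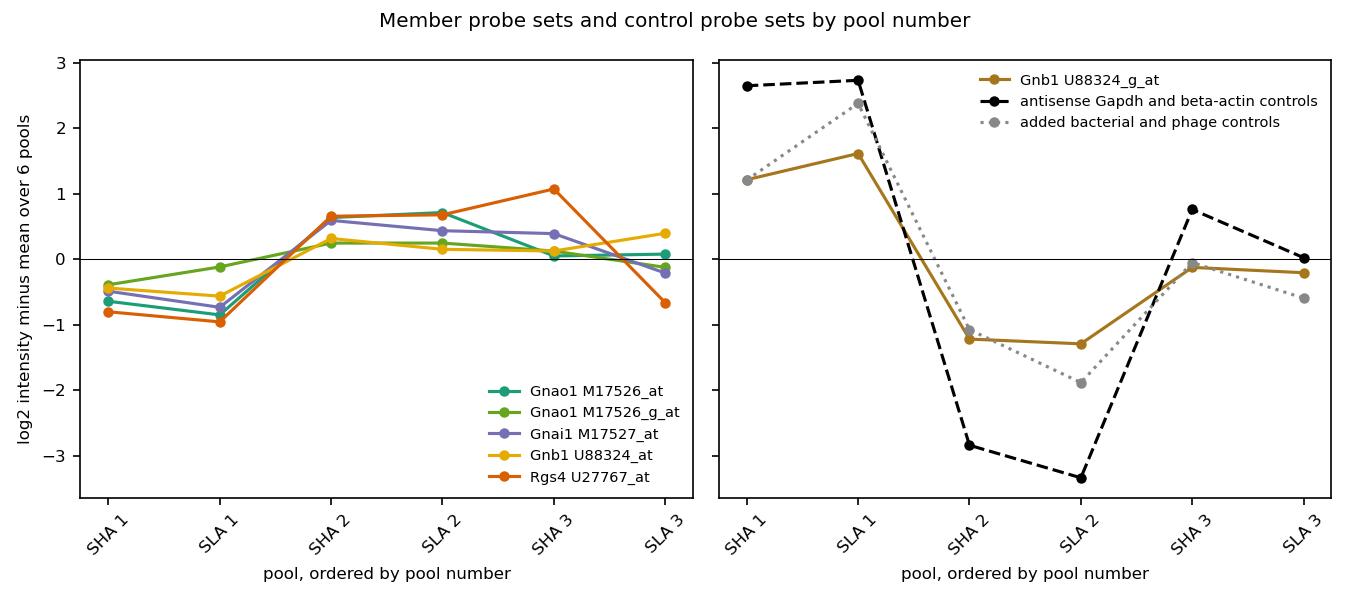
Log2 intensity minus its mean over the 6 pools, with pools ordered by number, for 5 probe sets of Gnao1, Gnai1, Gnb1 and Rgs4 (left) and for Gnb1 U88324_g_at with the geometric means of control probe sets (right). Gnb1 U88324_g_at, at 9654 in SHA pool 1 and 1788 in SHA pool 2, falls and rises with the controls, while on the left 4 of the 5 probe sets are lowest in the pool numbered 1 of each line. Gnao1 M17526_g_at is lowest in SHA pool 1, at 1467, among the SHA pools and in SLA pool 3, at 1764, among the SLA pools.

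Genes whose values most resembled 2 of these probe sets over the 6 pools were named by highest Pearson r, as a description in which all genes share the same 6 arrays. The genes were picked from those named among the 6555 probe sets tested, so high values of r follow from the picking. For Gnao1 M17526_g_at they were Dlg1 (r = 0.997, Spearman rho = 0.943), Dlg3 (r = 0.992, rho = 0.886), both scaffold proteins of synapses, and Slc25a14, a mitochondrial carrier (r = 0.985, rho = 1.00). For Rgs4 they were Nefl, the light neurofilament chain (r = 0.982, rho = 0.886), Cript, a partner of postsynaptic scaffolds (r = 0.979, rho = 0.829), and the neural adhesion molecule Ncam1 (r = 0.979, rho = 0.943). Ncam1 on rc_AI137246_s_at read 256, 473.6 and 530.8 in SHA pools and 241.1, 473.2 and 325.2 in SLA pools, with number 1 lowest in each line.

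The other genes of the pathway were placed in 10 lists of subunits, regulators, receptors and effectors, read from the brightest probe set of each gene. Of 175 genes listed, 129 were on the array with a probe set of their own and 96 passed the filter. No gene passed limma's test after adjustment, and 1 had an unadjusted p under 0.05, against 1.5% of all probe sets. Of all 3812 genes tested, read the same way, 12 with a difference above 0 and 42 below 0 had such a p. Of the 96, 54.2% (52 genes) were above 0 and 44 below in SHA minus SLA, beside 45.8% above 0 of all 3812 genes tested. The median was 0.02, beside -0.03 over all genes. In the lists that follow, higher and lower give the sign of the difference, not a passed test. Pools did not overlap for 2 genes higher in SHA, against 2.01% of all probe sets and 70 of the 3812 genes. They did not overlap for 6 lower, against 3.65% of all probe sets and 155 of the 3812 genes. With the block 6 of the 96 had an unadjusted p under 0.05, and none passed after adjustment. This compares with 5.26% of all probe sets tested and 194 of the 3812 genes.

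The gene with an unadjusted p under 0.05 was Grk3, a kinase that phosphorylates activated receptors and binds beta-gamma. Its probe set M87855_at read 26.2, 63.2 and 32.4 in SHA pools 1, 2 and 3, against 172.1, 111.9 and 72.1 in SLA pools 1, 2 and 3. Every SHA pool lay below every SLA pool, and the difference was -1.56 ± 0.56 (limma, unadjusted p = 0.019, adjusted p = 1.00). It was -2.72, -0.82 and -1.15 within numbers 1, 2 and 3. The unadjusted limma p was 0.014 with the block, 0.074 with SLA pool 1 left out (difference -1.25), 0.060 with SHA pool 1 left out (-1.30) and 0.051 with SLA pool 2 left out (-1.56). With both pools numbered 1 left out it was 0.15, at a difference of -0.99. Receptor kinases and arrestins as a list were split 4 higher to 4 lower, with a median of -0.05, and over all 11 probe sets 6 higher to 5 lower, with a median of 0.06.

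Among other subunits, 2 of 5 alpha genes were higher and 3 lower (median -0.18). Over all 10 probe sets of the alpha genes the sign of the median turned, with 6 higher, 4 lower and a median of 0.11. Of the beta and gamma genes 5 of 6 were higher (median 0.22). None of these 11 had an unadjusted p under 0.05. Gna15, an alpha subunit best known from blood cells, had the smallest p of the alpha genes. It read 58.8, 108.4 and 148.9 in SHA and 289.8, 119.6 and 215.1 in SLA, a difference of -0.99 ± 0.47, and -2.30, -0.14 and -0.53 within the numbers. With both pools numbered 1 left out it was -0.34, and without SHA pool 1 alone -0.62. Gnb5, the beta subunit that partners several RGS proteins, differed by 0.35 ± 0.29 on AF001953_g_at and was higher in the SHA pool of every number, by 0.39, 0.29 and 0.38. Without SHA pool 1 its difference was 0.17. Gnas, the alpha subunit that stimulates adenylyl cyclase, differed by 0.31 ± 0.36.

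Of 7 other RGS genes 4 were higher and 3 lower (median 0.06). Rgs14, a regulator enriched in hippocampal pyramidal cells, had the smallest p. It read 586.9, 700.7 and 928.5 in SHA and 588.1, 602.4 and 612.3 in SLA, a difference of 0.27 ± 0.24. The SHA pools spread more than the SLA pools, and SHA pool 1 lay below every SLA pool. Without SHA pool 3 the difference was 0.094. Of the accessory proteins 4 of 5 were higher (median 0.09). The exception was Nucb1, a calcium-binding protein that binds Gi alpha subunits, at 2048, 1790 and 1931 in SHA against 2638, 2105 and 2687 in SLA (-0.36 ± 0.22). Its SHA pools all lay below its SLA pools on rc_AA944007_g_at, and the unadjusted limma p was 0.14, and 0.024 with the block. Over all 8 probe sets of the accessory list 7 were higher and 1 lower. The lower one was rc_AA944007_g_at, so the other Nucb1 probe set lay the other way, above 0.

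Upstream, 10 of 30 receptors that couple to Gi or Go were higher and 20 lower (median -0.16), and 11 of 17 that couple to Gq were higher and 6 lower (median 0.11). No receptor had an unadjusted p under 0.05 without the block. With the block 3 of the Gi and Go list did, against 5.26% of all tested, and none passed after adjustment. These were the dopamine receptor Drd3 (unadjusted p = 0.016), the GABA-B receptor subunit Gabbr1 (0.035) and Sstr5 (0.043). The Gabbr1 values here are of AB016160_at, the brightest of its 4 probe sets tested. Over all 42 probe sets of the Gi and Go list 15 were higher and 27 lower. Sstr5, a somatostatin receptor, had the smallest p of the Gi and Go list without the block. It read 68, 35 and 84.5 in SHA and 22.3, 25.2 and 21.4 in SLA, a difference of 1.35 ± 0.61 with no overlap. Sstr3 also lay higher in every SHA pool, and Drd3 (-0.45 ± 0.26), Gabbr1 (-0.46 ± 0.23) and the lysophosphatidic acid receptor gene Lpar1 (-0.39 ± 0.28) lay lower in every SHA pool. Pools thus did not overlap for 2 higher and 3 lower genes of the 30, beside 2.01% and 3.65% of all probe sets tested. Agtr1b, an angiotensin receptor, had the smallest p of the Gq list without the block. On S61896_f_at, the brightest of its 3 probe sets tested, it differed by 0.97 ± 0.67, with 0.95, -0.66 and 2.61 within the numbers. This difference was 1.59 with array weights (limma, unadjusted p = 0.028). It was 0.033 with block and weights together, and 0.54 without SLA pool 3.

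Downstream, all 4 adenylyl cyclases tested were above 0 at their brightest probe set (median 0.18), the smallest unadjusted p being 0.38, and 1 of their 5 probe sets was below 0. The difference was also above 0 for 6 of 10 phospholipase C and IP3 receptor genes (median 0.13). Adcy5, an adenylyl cyclase that Gi alpha subunits inhibit, read 233, 220.4 and 244.4 in SHA and 119.9, 244.1 and 221.9 in SLA (0.32 ± 0.34). Only SLA pool 1 stood apart, and without SLA pool 1 the difference was -0.0021. The 1 adenylyl cyclase probe set below 0 was the other probe set of Adcy5. Plcb3, a phospholipase that both Gq and beta-gamma activate, differed by 0.94 ± 0.54, with 2.04, 0.28 and 0.51 within the numbers. It was 0.49 without SLA pool 1, 0.32 with array weights, and 1.41 without SLA pool 3. Of 4 genes of G protein-gated potassium channels and presynaptic calcium channels, 2 were higher and 2 lower (median -0.27). Cacna1a, the pore of P/Q-type calcium channels, read 57.1, 426.5 and 408.5 in SHA and 215.6, 548.5 and 551.9 in SLA (-0.90 ± 0.73). The SHA pool was the lower one within each number. The unadjusted p was 0.24 in limma, and 0.022 with the block, and without SHA pool 1 the difference was 0.05. These values are of rc_AI229031_s_at, the brightest of 4 Cacna1a probe sets. Over all 8 probe sets of the channel list 4 were higher and 4 lower, so not every Cacna1a probe set was lower.

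**Figure D4:**
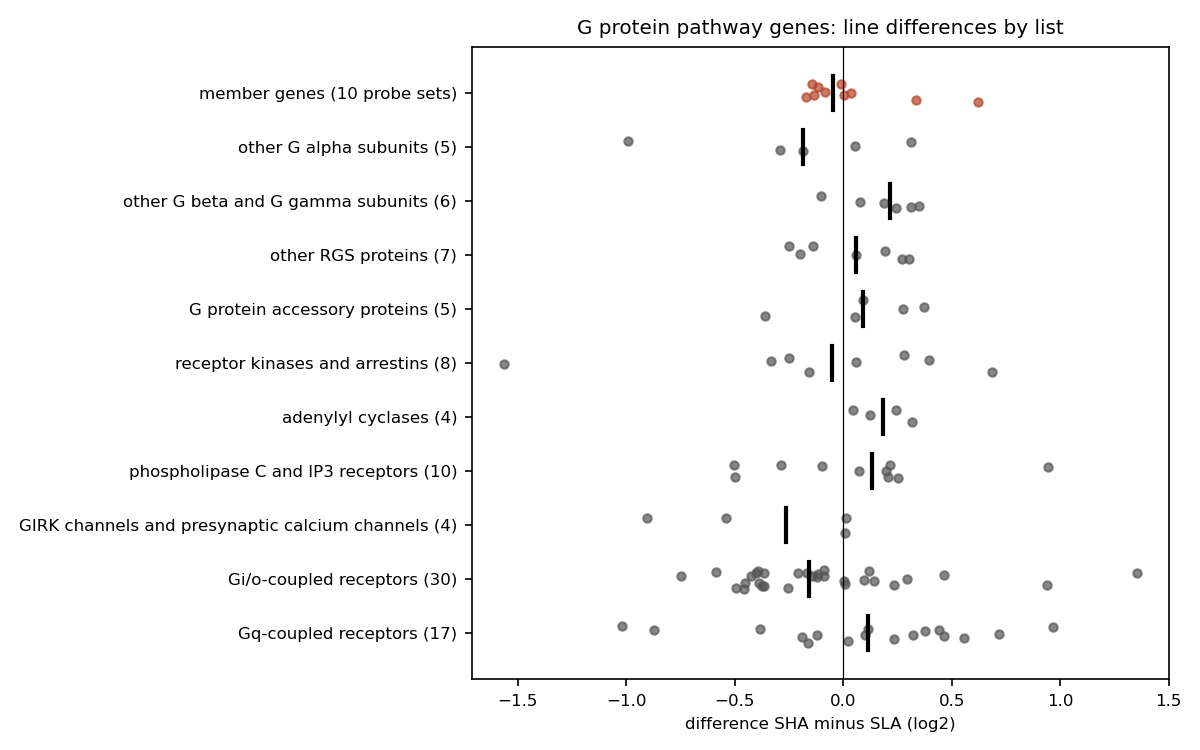
Difference SHA minus SLA in log2 for the 10 probe sets of the 5 genes (red) and for each gene of 10 pathway lists (grey, 1 point per gene at its brightest probe set, number of genes in brackets), with the list median as a black bar. The point farthest to the left is Grk3, at -1.56.

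Marker genes gave a check of the tissue. Neuronal markers were measured for 6 genes, astrocyte markers for 7 and oligodendrocyte markers for 5. Summed intensities of the astrocyte markers ranged from 22857 to 26039 in SHA and from 20228 to 24189 in SLA. Those of the oligodendrocyte markers ranged from 14449 to 21166 in SHA and from 14129 to 26111 in SLA. Those of 5 microglial markers ranged from 2115 to 3228 in SHA and from 3464 to 4228 in SLA without overlap. All 5 genes were below 0 in SHA minus SLA at their brightest probe set, as were 2066 of the 3812 genes tested, while 1 of their 8 probe sets was above 0. Only C1qb, a complement component made by microglia, had an unadjusted p under 0.05 among the 5 (limma, 0.039, adjusted p = 1.00). It was also the only 1 of the 5 whose pools did not overlap, beside 3.65% of all probe sets with lower SHA pools. Most of each sum was the protease gene Ctss, the brightest of the 5. Ctss overlapped between the lines, at 1932, 2394 and 1408 in SHA and 2056, 3106 and 3238 in SLA. Endothelial markers summed to 406.9 to 615.9 in SHA and 407.6 to 813.7 in SLA, and markers of neighbouring brain regions to 810.1 to 1289 in SHA and 908.8 to 1556 in SLA. Markers of the choroid plexus summed to 898.4 to 1023 in SHA and 963.7 to 1133 in SLA, and those of blood cells to 1312 to 3009 in SHA and 1306 to 2542 in SLA. No pool read 0 or the floor for the neuronal markers. The part of these cell types in the values of the G protein genes and of Grk3 was not tested.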

How the data were processed

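Total RNA of 6 hippocampal pools, 3 per line, was read on 6 single-colour rat oligonucleotide arrays. Each probe set has 1 linear intensity per array in the deposited table. The 2%-trimmed mean lay between 250.3 and 250.4 on the arrays, so the arrays had been scaled to a common mean. The software behind this is not given in the sources used here. Having only 6 arrays limits the precision.

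Values under 8.9, the 10th percentile of the 8740 probe sets other than 59 controls, were raised to that floor before log2. The dimmest 25% were left out, leaving 6555. The SHA and SLA pools were compared in R 4.3.3 by limma 3.58.1 (lmFit, eBayes with an intensity trend, two-sided, Benjamini-Hochberg over all 6555, threshold 0.05). The procedure was tested on simulated data. Symbols come from the platform annotation, updated through gene numbers (6985 of 7006 matched). Deviations from the line means correlated at 0.44, 0.68 and 0.13 between pools numbered 1, 2 and 3, and same-numbered pools were therefore treated as pairs in the blocked fit. The pairing rests on the data alone.

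The genes and lists were chosen with earlier results of these data known. Pool values were given for the brightest probe set of each gene. From each pathway list, genes with an unadjusted p under 0.05 were named, or else the gene of smallest p. Gnas, Drd3, Gabbr1, Lpar1, Sstr3, C1qb and Ctss were added after their values were seen. The 18 alternatives changed normalization, filter, floor, trend, weights, block and pools.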

Additional observations from a re-analysis of the deposited data

How the results depend on the processing

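Over 18 alternatives the 10 probe sets of the 5 genes gave 178 values, of which 154 kept their direction, 24 reversed and 0 passed the threshold (lowest adjusted p 0.62, lowest unadjusted p 0.12). The reversals belong to probe sets whose difference is small beside its error, and Gnai1, Rgs4 and the Gnai2 probe sets rc_AA875225_at and rc_AA875225_g_at had none. Gnao1 M17526_g_at became 0.047 with median centring, 0.067 with array weights and 0.0082 with the replicate block and array weights. Gnao1 M17526_at became -0.11 with array weights and -0.037 with block and weights. With array weights Gnb1 AF022083_s_at became 0.019, U88324_at -0.30 and U88324_g_at 0.24, the last 0.021 with block and weights. Leaving out 1 pool, or both numbered 1, gave -0.38 to 0.40 for Gnao1 M17526_at, -0.13 to 0.18 for M17526_g_at, -0.39 to 0.010 for Gnai2 M12672_at, -0.32 to 0.091 for Gnb1 AF022083_s_at, -0.27 to 0.23 for U88324_at, -0.75 to 0.71 for U88324_g_at, -0.0040 to 0.51 for Adcy5 and -1.40 to 0.052 for Cacna1a. The cause was not tested. Of the 177 values of the 10 named pathway genes, 174 kept their direction and 0 passed. The count of 0 probe sets past limma's threshold became 12 with block and weights, none of them of the 5 genes, and 98 probe sets had an unadjusted p under 0.05. That number was 345 with the replicate block, 354 with array weights, 871 with both, 203 unfiltered, 63 when the dimmer 50% were dropped, and 57 to 152 without 1 pool. The replicate block changed no call after adjustment. The stricter filter left no value for Rgs4, Gnb1 AF022083_s_at, Grk3, Sstr5 and Agtr1b, whose named probe sets lie in the dimmer 50%. With all probe sets of a gene, 55.9% of the pathway values were higher in SHA, against 54.2% with the brightest. Gnai3, Gnaq and Rgs2 were not analysed here, and 3 pools per line leave wide intervals for Rgs4.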
